A study of Mus musculus with 2 samples.

Results

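The 100 cells with the highest content of the bile duct marker genes Krt19, Krt7, Epcam and Sox9 were taken from 2 single-cell libraries of mouse liver. For each cell, the unique molecular identifiers (UMIs, 1 per captured RNA molecule) of the 4 genes were summed and divided by all UMIs of the cell. The members were chosen by this quotient, as the 100 cells with the highest value among 36217 cells with 1000 to 10000 detected genes, at most 100000 UMIs and at most 5% mitochondrial UMIs, out of 39559 barcodes. They were not 1 cell type. Of the members, 29 fell in a cholangiocyte-like cluster of cells, 27 fell in a mesothelial-like cluster and had no Epcam, Sox9 or Spp1 UMI, and 44 were scattered over clusters led by genes of hepatocytes, macrophages, stellate cells, endothelium, lymphocytes and neutrophils. The label of cholangiocyte marker content therefore described the 4 genes. The clusters were named from the same biliary and mesothelial lists that are read out below. By these lists, biliary genes outside the rule accompanied the 4 genes mainly in the first of these groups, which the naming in part set in advance. In that group, biliary genes were raised in 27 of the 29 members, 7 of them with a share of hepatocyte RNA below the range of hepatocytes and 20 with a share within it. The median share of leukocyte-like cells, 14.7%, also lay within that range, so this division does not sort duct cells from hepatocytes. Of the 29, 13 were barcodes under 3500 UMIs, a depth at which leukocyte-like barcodes held about as much hepatocyte RNA, 8 had 3500 to 10000 UMIs, and 8 had more, of which 2 lay below the hepatocyte range and 6 within it.

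Both libraries came from male p16-Tom mice on a C57BL/6 background, heterozygous offspring of p16-CreERT2 and R26-CAG-LSL-tdTomato-WPRE mice, in which tamoxifen lets cells that transcribe p16Ink4a at that time express the red protein tdTomato from then on. All mice had received carbon tetrachloride (CCl4), a hepatotoxin that causes fibrosis, over 4 weeks, together with tamoxifen. Their age was not given in the sources used here. Liver pieces were fixed before they were dissociated, and events stained by Hoechst and MitoBrilliant 646, dyes of nuclei and mitochondria, were divided by tdTomato fluorescence into a Tom- and a Tom+ fraction, each labelled as hepatocytes. Each fraction gave 1 library measured with the probe-based 10x Genomics Flex assay. There was thus 1 sample per group, the number of mice behind each was not stated, the cells carried no animal label, and no test between groups was possible.

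Cholangiocytes are the epithelial cells of the bile ducts. They carry keratins 7 and 19 and the adhesion molecule Epcam, and the transcription factor Sox9 sets up their programme, whereas mature hepatocytes lack most of these genes but can switch on Sox9 and other ductal genes after injury. The mesothelium, a sheet of flat cells over the liver capsule, is also a keratin-positive epithelium and is told from bile ducts by genes such as Msln and Upk3b.

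Krt7, like Krt19, was found in both epithelial groups of members, Epcam in the cholangiocyte-like but not in the mesothelial-like group, and Upk3b, a uroplakin outside the rule, marked the latter. Their RefSeq promoters are shown as examples of a shared gene and of a gene of each group, from 250 bases before to 50 bases after the annotated start.
Krt7 (GRCm38.p6, chr15:101412153-101412452, plus strand): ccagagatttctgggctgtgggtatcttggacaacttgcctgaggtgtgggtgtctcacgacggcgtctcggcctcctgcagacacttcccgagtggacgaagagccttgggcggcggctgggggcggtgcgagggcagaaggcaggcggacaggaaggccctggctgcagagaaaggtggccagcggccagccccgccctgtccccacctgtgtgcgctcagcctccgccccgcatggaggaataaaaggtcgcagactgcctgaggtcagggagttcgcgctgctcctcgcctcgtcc
Epcam (GRCm38.p6, chr17:87635729-87636028, plus strand): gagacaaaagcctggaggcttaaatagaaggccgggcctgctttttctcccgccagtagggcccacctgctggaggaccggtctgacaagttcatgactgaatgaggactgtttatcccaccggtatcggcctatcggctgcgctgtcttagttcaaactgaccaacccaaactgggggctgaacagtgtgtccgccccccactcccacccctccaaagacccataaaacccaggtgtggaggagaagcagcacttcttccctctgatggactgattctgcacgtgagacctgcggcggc
Upk3b (GRCm38.p6, chr5:136038246-136038545, plus strand): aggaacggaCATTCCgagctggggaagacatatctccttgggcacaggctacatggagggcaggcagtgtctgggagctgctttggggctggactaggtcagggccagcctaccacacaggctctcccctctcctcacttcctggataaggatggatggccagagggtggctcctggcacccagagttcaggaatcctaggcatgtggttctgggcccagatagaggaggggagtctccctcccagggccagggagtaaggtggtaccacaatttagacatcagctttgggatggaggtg
Capitals mark the letters CATTCC, the reverse complement of GGAATG, which is the core of motifs bound by TEAD factors. Both strands were searched for GGAATG, for the HNF1 half-site GTTAAT and for the TATA box letters TATAAA, which 14.7%, 7.10% and 13.6% of 32851 RefSeq promoters of the same length held. The Upk3b promoter held 1 TEAD match, and the letters searched for were not found in the other windows. Promoters of Krt19, Sox9 and Msln were not analysed here.

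The 4 rule genes lie on mm10 chromosome 11 (Krt19, 100140810 to 100148665, minus strand), chromosome 15 (Krt7, 101411043 to 101430313, plus strand), chromosome 17 (Epcam, 87635979 to 87651129, plus strand) and chromosome 11 (Sox9, 112782224 to 112787760, plus strand). The members' marker content ran from 40.8 marker UMIs per 10000 in the first member through a median of 5.08 to 3.15 in the last. The last member held 1 Sox9 UMI among 3171, the member before it 6 Krt19 UMIs among 19019, and the first cell outside the limit 1 Krt7 UMI among 3196, or 3.13 per 10000. A single marker UMI was enough for a barcode of at most 3171 UMIs to enter, and 49 of the 100 members rested on 1 such UMI. Of the 2039 kept cells at or under that depth, 65 held a marker UMI. Members were shallow, with a median of 2763 UMIs, which is 9.77% of the median of all cells kept. Krt19, Krt7 and Epcam were rare in these libraries, with 405, 286 and 294 UMIs in the cells kept, of which the members held 60.2%, 38.8% and 42.5%. Sox9 was wider spread, at 5994 UMIs in 4679 cells, and the members held 2.37% of them. These values chose the members and are given as a description only.

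**Figure D1:**
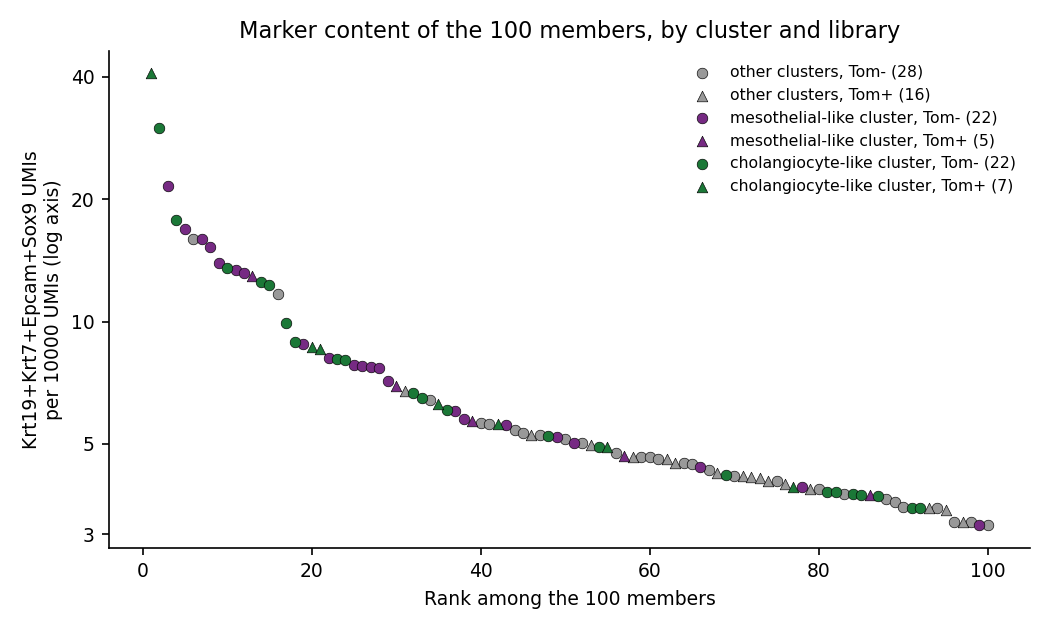
Marker UMIs per 10000 UMIs (log axis) of the 100 members in order of rank, coloured by cluster group, with circles for Tom- and triangles for Tom+ cells. Cholangiocyte-like and mesothelial-like members alternate from 40.8 downward, and members of other clusters make up most of the lower part of the curve, down to 3.15.

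The Tom- library held 23220 barcodes, 681279005 UMIs and 21950 cells kept (median 24309 UMIs), and the Tom+ library held 16339 barcodes, 715333889 UMIs and 14267 cells kept (median 34210 UMIs). Of the Tom- cells 72 were members, or 0.328% (95% Clopper-Pearson interval 0.257 to 0.413), and of the Tom+ cells 28, or 0.196% (0.130 to 0.284). This and every other interval covers counting error only. The Tom+ to Tom- ratio of shares was 0.598 (0.372 to 0.938). With 50 members it was 0.385 (0.172 to 0.783). Its interval passed 1 when Krt19 was left out of the rule (0.724, 0.460 to 1.12) and when Epcam was left out (0.691, 0.437 to 1.07). It also passed 1 without the highest doublet scores (0.662, 0.416 to 1.03), which is not a control for doublets, as the caller did not work. Among the 100 members the ratio was 0.490 (0.177 to 1.19) for cholangiocyte-like members, 0.350 (0.103 to 0.946) for mesothelial-like members and 0.879 (0.444 to 1.68) for members of other clusters. Since a shallow barcode needs fewer marker UMIs to enter and the libraries differ in depth, these ratios are not ratios of cell types. Over all 133 cells of the cholangiocyte-like cluster, members or not, the shares were 0.360% in the Tom- and 0.378% in the Tom+ library, a ratio of 1.05 (0.730 to 1.51). This is not a ratio of duct cells either. Of these cells 104 were not members, and 60 of the 104 held no UMI of the 4 rule genes. The median hepatocyte-list share of the 104 was 18.2%, against 18.3% in reference hepatocytes. Barcodes that occur in both libraries numbered 503, of which 3 were members and none was a member in each library.

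The cholangiocyte-like cluster was led by Dmbt1, Mmp7, Kif12, Spink4, Epcam, Krt19, Tspan8, Sftpd, Cd24a and Spp1. Epcam and Krt19 are rule genes. The first member alone held 1057 Dmbt1 and 111 Spink4 UMIs, so this order rests in part on 1 cell of the cluster. The 29 members in it, 22 of them from the Tom- library, had 1599 UMIs at the lowest, 4987 at the median and 52695 at the highest. Krt19 was detected in 16, Krt7 in 13, Epcam in 18 and Sox9 in 14 of them, and Epcam and Sox9 occurred together in 10. The rule used these 4 genes, the clustering used 2000 variable genes, and the cluster was named from the rule genes and the biliary list. The levels below therefore describe the cells and do not test them. For biliary genes outside the rule, a list of 37 was used. It was split by the level in 21155 reference hepatocytes, the cells of clusters with enough genes and no stromal or immune lead, because hepatocyte RNA was found in every barcode. The 25 genes under 10 CPM (UMIs per 1000000 UMIs of the cells summed) in reference hepatocytes came to 4871 CPM in the cholangiocyte-like members (1627 UMIs), against 1132 in mesothelial-like members, 330 in members of other clusters and 21.2 in reference hepatocytes. Every cholangiocyte-like member held at least 1 UMI of these genes. Leaving out the first member, which alone held 665 of the 1627 UMIs, gave 3419 CPM. The 8 members over 10000 UMIs held most of all UMIs of the 29 members. Summed CPM and intervals of this group, here and below, thus describe mainly these deep cells. The number of different genes among the 25 that were detected was 1 at the lowest, 8 at the median and 21 at the highest, and 23 of the 29 members had 3 or more of them. Among reference hepatocytes 4.00% had 3 or more at a median depth of 33106 UMIs, and among 303 leukocyte-like cells under 3500 UMIs, a type that should lack these genes, 0.330% did at a median depth of 1953 UMIs.

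Several of these genes encode secreted or surface proteins of the ducts. Spp1, which encodes the matrix protein osteopontin (chromosome 5, 104435118 to 104441050), reached 1224 CPM (1109 to 1349), against 1.26 CPM in reference hepatocytes. A UMI of it was found in 18 of 22 Tom- members and in 5 of 7 Tom+ members. Cd24a, a glycosylated surface protein of progenitor and duct cells, was at 668 CPM (583 to 761) in 16 members and at 252 CPM without the first member. Tspan8, a tetraspanin, was at 338 CPM (279 to 407) in 16 members and 195 CPM without that cell, and Prom1, the stem cell antigen CD133, at 177 CPM (134 to 228) in 18. Mmp7, a matrix metalloproteinase, was at 674 CPM in 9 members, with 205 of its 225 UMIs in the first member and 71.1 CPM without it. Cd24a, Tspan8 and Mmp7 were thus carried in part by 1 cell, while Spp1, at 1383 CPM without it, was not carried by that cell. The part of the other deep members was not separated. Muc1, a membrane mucin, was at 168 CPM (127 to 218) in 12 members (56.9 CPM without the first), and no UMI of it was found in the remaining 71 members. Tm4sf4, also a frequent hepatocyte transcript in these libraries, was at 2626 CPM against 960 in reference hepatocytes.

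Genes of cell contacts, transport and the primary cilium accompanied them. Cdh1, the epithelial cadherin, was at 305 CPM (249 to 371) in 17 members against 26.8 in reference hepatocytes. The tight junction protein Cldn7 was at 102 CPM (70.5 to 142) in 12 members and the membrane protease St14 at 105 CPM (73.0 to 146) in 14, and both were under 0.1 CPM in reference hepatocytes. Pkhd1, whose product fibrocystin sits on the cilium, was found in 26 of the 29 members at 377 CPM (314 to 449), against 12.8 in reference hepatocytes. The chloride channel gene Cftr was at 26.9 CPM (9 UMIs in 5 members) and the secretin receptor gene Sctr had 4 UMIs in 4 members. Bicc1, an RNA-binding protein linked to cystic ducts, was at 237 CPM in 18 members but was at 372 CPM in mesothelial-like members as well. Among transcription factors, Ehf was at 102 CPM (70.5 to 142) in 13 members (64.0 CPM without the first) and Grhl2 at 50.9 CPM (29.6 to 81.5) in 9, each under 0.1 CPM in reference hepatocytes and with no UMI in the other members. Outside the lists, the kinesin gene Kif12 had 95 UMIs in 25 of the 29 cholangiocyte-like members and none in the other 71.

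**Figure D2:**
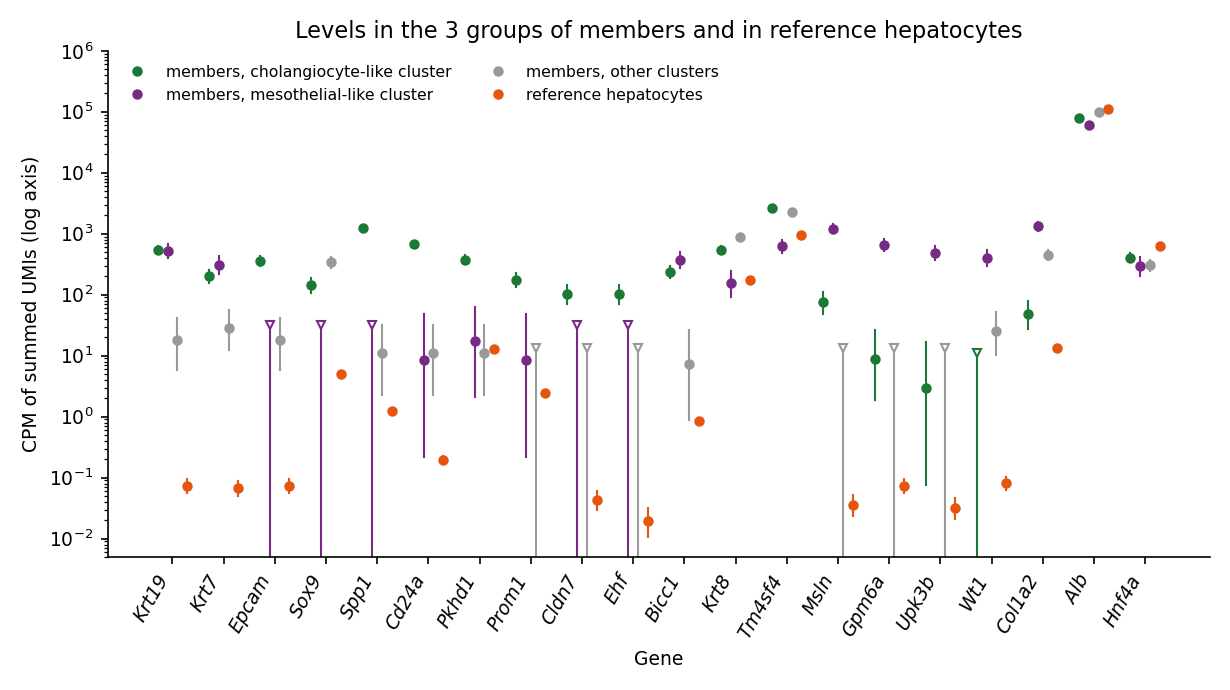
CPM of the summed UMIs (log axis) of 20 genes in the 3 groups of members and in reference hepatocytes, with exact 95% Poisson intervals as bars. Open triangles mark the upper bound of genes with 0 UMIs. Spp1, Cldn7 and Ehf are at 1224, 102 and 102 CPM in cholangiocyte-like members and at 0 UMIs in mesothelial-like members, while Msln is at 1201 CPM in the latter.

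The question whether these were duct cells or hepatocytes with ductal genes was put to each cell through a list of 19 measured hepatocyte genes. In reference hepatocytes the list took a median of 18.3% of UMIs, with 9.36% at the 1st and 25.4% at the 99th percentile. It took 3.75% at the lowest, 13.2% at the median and 22.3% at the highest of cholangiocyte-like members. In the 510 leukocyte-like cells of all depths it took 7.65% at the 1st percentile, 14.7% at the median and 24.5% at the 99th percentile. A share within the range of reference hepatocytes therefore does not mark a hepatocyte. The 37 biliary genes were raised above the 99th percentile of reference hepatocytes in 27 of the 29, 7 of them with hepatocyte content under the 1st percentile and 20 within the range. Over all 100 members, biliary genes were raised in 40, and 28 of these had hepatocyte content within the range. The list of 37 also reads hepatocyte RNA, as Tm4sf4 alone was at 960 of its 1852 CPM in reference hepatocytes. In the member ranked 79, Tm4sf4 gave 395 of the 484 UMIs of the list. Among the 44 members of other clusters the list was raised in 8, while 4 had 3 or more of the 25 low genes. Calls and ratios of the 37 genes are to be read with this limit. The limit of 0.320% came from reference hepatocytes with a median of 33106 UMIs. Leukocyte-like cells under 3500 UMIs had a 99th percentile of 0.396%, so shallow cells can pass it more easily. Depth separated these cells further. The 13 members under 3500 UMIs held 141, 252 and 410 hepatocyte-list UMIs at the lowest, median and highest, while leukocyte-like cells under 3500 UMIs held 265 at the median and 172 to 457 from the 5th to the 95th percentile. As a share of all UMIs this was 6.32%, 11.3% and 14.2%, against 13.4% at the median and 7.46% at the 1st percentile of those leukocyte-like cells, and 3 of the 7 members below the hepatocyte range were among these 13. The 8 members over 10000 UMIs were more informative. The first member (Tom+, 52695 UMIs) held 130 Krt19, 23 Krt7, 53 Epcam and 9 Sox9 UMIs, 1170 UMIs of the biliary list and 3.75% hepatocyte-list UMIs, and the second (Tom-, 15371 UMIs) held 247 biliary UMIs and 5.58%. Both lay below the hepatocyte range. The other 6 held 89 to 274 UMIs of the 37 biliary genes, with 13 to 19 of the 25 low genes detected. Their hepatocyte-list share of 13.3 to 21.2% lay inside that range. Members ranked 10 and 14, with 9611 and 7993 UMIs, held 217 and 166 biliary UMIs at 7.88% and 6.46%.

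**Figure D3:**
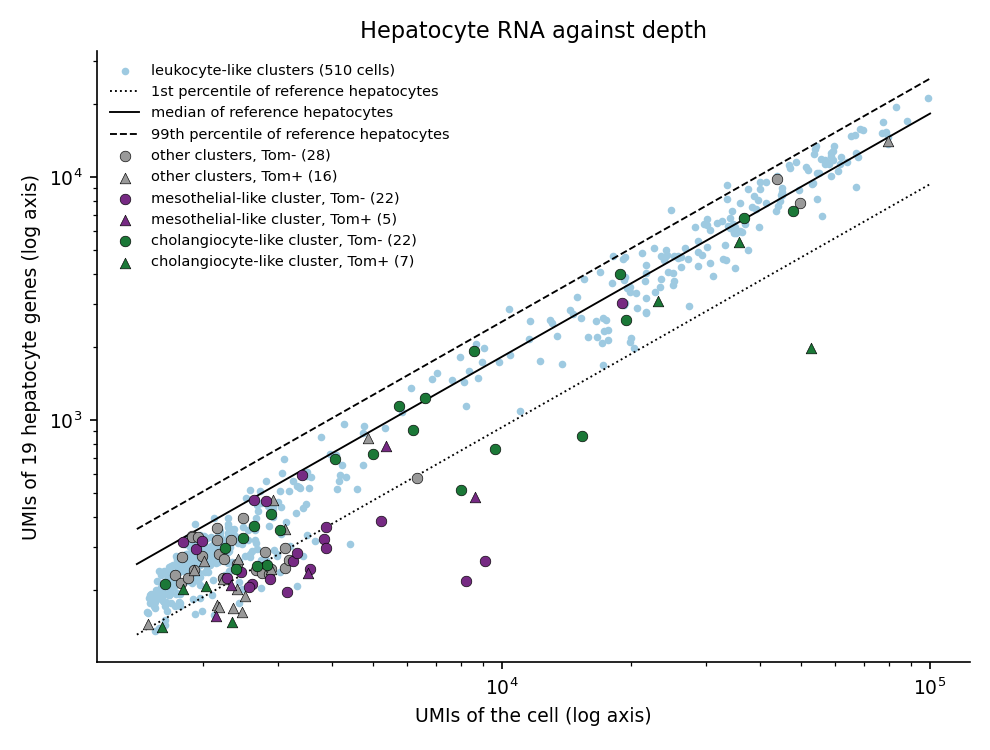
UMIs of 19 hepatocyte genes against all UMIs of the cell (both log axes) for the 100 members and for 510 leukocyte-like cells, with the 1st percentile, median and 99th percentile share of reference hepatocytes as lines. Most shallow members overlap the leukocyte-like cells, the first 2 members lie under the lines at 52695 and 15371 UMIs, and the other 6 cholangiocyte-like members over 10000 UMIs lie between the outer lines.

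The zonal make-up of the hepatocyte RNA differed between these cells. Zone 1 hepatocytes lie around the portal vessels, next to the ducts, and zone 3 hepatocytes around the central vein. The zone 3 genes' share of all zone 1 and zone 3 UMIs was 16.2% (14.9 to 17.5) in Tom- leukocyte-like cells under 3500 UMIs and 15.4% in Tom- reference hepatocytes, and 30.5% (27.9 to 33.2) and 34.1% in the Tom+ library. Cholangiocyte-like members under 3500 UMIs had 13.7% (8.19 to 21.0) in the Tom- and 33.3% (18.6 to 51.0) in the Tom+ library, so their intervals included both values of their library. The first 2 members had 37.5% (28.2 to 47.5; Tom+) and 26% (14.6 to 40.3; Tom-). Members ranked 82 and 84 (both Tom-) had 2.13% (0.925 to 4.16) and 2.82% (1.55 to 4.69), with 66 and 93 UMIs of the zone 1 enzyme gene Sds against 6 and 7 of the zone 3 gene Cyp2e1. The member ranked 77 (Tom+) had 74.0% (69.0 to 78.5), with 155 Cyp2e1, 18 Glul and 5 Sds UMIs. The members ranked 20 (Tom+), 32 and 87 (both Tom-) had 11.6% (6.33 to 19), 9.73% (4.96 to 16.8) and 7.92% (3.48 to 15). Of these 6, only the member ranked 32 had an interval that included the value of its library's shallow leukocyte-like cells. Single reference hepatocytes were not compared in this way. Whether each was 1 cell or 2 cells in 1 droplet was not tested, since the doublet caller did not work on these libraries. Of the 510 leukocyte-like cells that were not members, 172 also had over 10000 UMIs, and the 99th percentile of hepatocyte content over all 510 was 24.5%. The 104 cells of the cholangiocyte-like cluster that were not members had a median of 30742 UMIs and 18.2% hepatocyte-list UMIs, and 54.8% of them held 3 or more of the 25 low biliary genes.

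Pathways known from ductular reactions, in which duct cells multiply and signal to fibroblasts after injury, were examined in the cholangiocyte-like members. Compared with all cells that were not members, 32.1% of 9691 genes were at least 2-fold higher in these members and 2.26% at least 2-fold lower, with a median log2 ratio of 0.56. Of 10 Notch pathway genes 6 could be compared, of which 4 were higher and 0 lower. Jag1, a Notch ligand, was at 135 CPM (98.3 to 180) in 12 members against 6.77 in reference hepatocytes, and the Notch target Hes1 at 153 CPM (114 to 201) in 17 members against 10.2. Of 8 measured targets of the coactivator YAP, 6 were higher and 0 lower. Ctgf, a matrix-associated YAP target, was at 380 CPM (317 to 452) against 8.83 in reference hepatocytes and 17.3 in mesothelial-like members, and Ajuba, a LIM-domain protein, at 120 CPM (85.6 to 163) against 7.40. Of 17 ligands and receptors of ductular reactions 9 could be compared, of which 7 were higher and 1 lower. Clcf1, a cytokine of the LIF receptor family, had 27 UMIs in 8 members (80.8 CPM, 53.3 to 118), Pdgfa, a growth factor for stellate cells, had 25 in 12 members, and Il6 had no UMI in any of the 100 members. The YAP and ligand lists were not particular to the cholangiocyte-like members. The YAP targets summed to 850 CPM in them, 795 in mesothelial-like members and 667 in members of other clusters, against 203 in reference hepatocytes, and the ligands and receptors to 428, 553 and 1391 CPM, against 136. The Notch list was at 458, 268 and 192 CPM, against 102. In the members of other clusters, 3 deep cells held most of the UMIs behind these sums. As means over cells, in which each cell counts alike, the YAP targets were at 1020, 788 and 978 CPM, the ligands and receptors at 375, 462 and 412 CPM and the Notch list at 433, 224 and 310 CPM in the same order of groups, against 210, 150 and 105 CPM in reference hepatocytes.

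The mesothelial-like cluster was led by Msln, Upk1b, Gpm6a, Upk3b and Muc16. Its 27 members, 22 of them from the Tom- library, had 1793 UMIs at the lowest, 3251 at the median and 19019 at the highest. They entered through keratins, with Krt19 in 23 and Krt7 in 15 of the 27. Krt19 was at 527 CPM (403 to 677) in them and at 533 CPM (457 to 617) in cholangiocyte-like members (171 CPM, 126 to 226, without the first member). As a rule gene it chose these cells, so these levels do not compare the cell types. Over all cells of each cluster, members or not, it was at 76.3 CPM in the mesothelial-like and 49.2 CPM in the cholangiocyte-like cluster. Epcam, Sox9 and Spp1 had no UMI, with an upper bound of 31.9 CPM each. The 13 mesothelial genes summed to 590 UMIs, or 5099 CPM (4696 to 5527), against 153 CPM in cholangiocyte-like and 32.6 CPM in other members and 0.782 CPM in reference hepatocytes. They were raised in 23 of the 27. The cluster was named from these genes, so this describes the cells and does not test them. Msln, which encodes mesothelin (chromosome 17, 25748613 to 25754378), was at 1201 CPM (1010 to 1418) in 19 members. It was at 1013 CPM (820 to 1239) in the 22 Tom- and at 2003 CPM (1456 to 2690) in the 5 Tom+ members, and the spread between cells is not in these intervals. The membrane protein Gpm6a was at 657 CPM in 20 members and the uroplakin Upk3b at 484 CPM in 18. Wt1, a transcription factor of the mesothelium, was at 406 CPM (298 to 540) in 15 members, and Muc16, a surface mucin, at 311 CPM in 16. Fibroblast and stellate genes ran with them. The list of 12 was at 3509 CPM (3176 to 3867), against 234 CPM in cholangiocyte-like members, with the collagen genes Col1a2 at 1314 CPM and Col3a1 at 994 CPM and Dcn, a matrix proteoglycan, at 804 CPM in 22 of the 27 members. That list was raised in 20 of them, and what part other cells had in it was not tested. Outside the lists, the sulfatase Sulf1 was found in 13, the heparan sulfate proteoglycan Gpc3 in 16 and Slpi, a protease inhibitor, in 16 of the 27, and Sulf1 and Gpc3 had no UMI in the other 73 members, while Slpi had 2.

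Cholangiocyte-like over mesothelial-like members had a log2 ratio of 1.95 (1.79 to 2.13) for the 37 biliary genes and -5.06 (-5.50 to -4.65) for the mesothelial genes. The clusters were named from these lists, so the signs of both ratios were set by the naming. Of 5096 genes compared, 10.7% were 2-fold higher and 11.8% 2-fold lower in the cholangiocyte-like members. Genes of both lists occurred in single cells of either group. Members ranked 1, 2 and 4, all cholangiocyte-like, held 17, 6 and 2 Msln UMIs, and 15 of the 27 mesothelial-like members held 3 or more of the 25 low biliary genes, 3 at the median. The biliary list is not particular to ducts. Over the whole mesothelial-like cluster, 11 of the rule and biliary genes were at 5 CPM and 1.5-fold over other clusters. Epcam, Sox9, Spp1, Cldn7 and Ehf had no UMI in the 27. Hepatocyte-list UMIs took 2.64% at the lowest, 8.48% at the median and 17.8% at the highest of mesothelial-like members, and 17 of the 27 lay below the reference range.

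**Figure D4:**
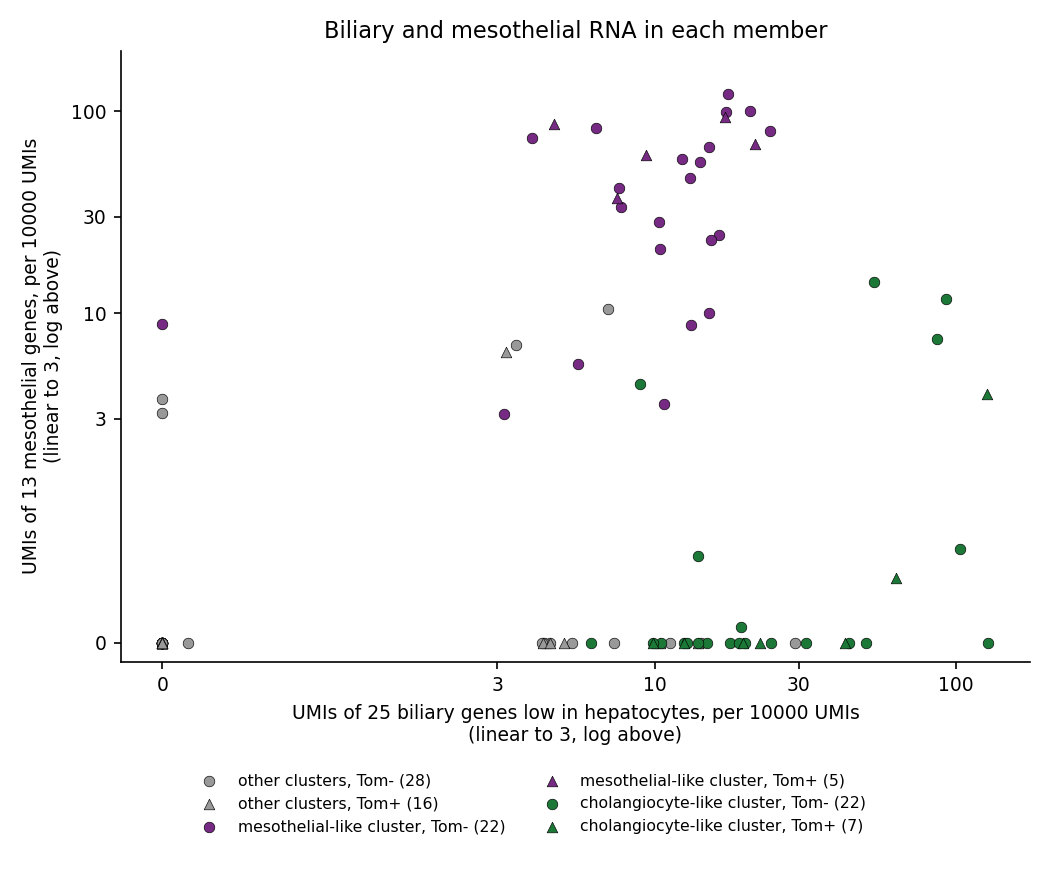
UMIs of 25 biliary genes that are low in hepatocytes (horizontal) and of 13 mesothelial genes (vertical) per 10000 UMIs in each of the 100 members, on axes that are linear to 3 and logarithmic above. Mesothelial-like members lie at the top, cholangiocyte-like members at the right and most members of other clusters at 0 on both.

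The 44 members of other clusters had a different entry. They had 1484 UMIs at the lowest, 2375 at the median and 79934 at the highest. Sox9 was detected in 29 of them, Krt7 in 8, Epcam in 5 and Krt19 in 4, and 43 of the 44 held 1 marker only. UMIs of the 25 low biliary genes occurred in 17 of the 44, and 4 had 3 or more of these genes. The clusters with most of these members were led by stellate genes (9 members), by macrophage genes (9 members) and by endothelial genes (5 members), and 14 had the macrophage list raised, 9 the stellate list, 7 the endothelial list and 6 the other leukocyte list. For comparison, reference hepatocytes thinned to 2000 UMIs had a Sox9 UMI in 1.11% of cells (0.973 to 1.26), and a Krt19, Krt7 or Epcam UMI in 0.00948%, 0.00474% and 0.00948%. Without thinning the shares of reference hepatocytes were 14.8%, 0.260%, 0.241% and 0.274%. Many of the 44 lay in clusters led by genes of other cell types. Leukocyte-like cells thinned to 2000 UMIs had a Sox9 UMI in 0% of 345 cells (0 to 1.06), and in 5.49% of 510 cells without thinning. By the counts of the 44 members, a single Sox9 UMI in a shallow barcode was the most frequent way into the list outside the epithelial clusters. These members are described by the rule and not as duct cells.

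Among these 44, 3 deep cells held many Sox9 UMIs and no Krt19, Krt7, Epcam or Spp1 UMI. Sox9 is a rule gene that chose them, so its level in them is a description only. The member ranked 79 (Tom+, 79934 UMIs) held 31 Sox9 UMIs (388 CPM, 264 to 550, against 5.09 in reference hepatocytes), with 149 UMIs of Krt8, 57 of Krt18 and 13 of Krt23, all keratins of simple epithelia. It also held 145 UMIs of Tnfrsf12a, the receptor of the duct-expanding cytokine TWEAK, 37 of the growth factor Areg and 41 of the cell cycle inhibitor Cdkn1a. Its 9777 Alb UMIs and a hepatocyte-list share at percentile 42.5 of reference hepatocytes placed it within their range. The member ranked 80 (Tom-, 43869 UMIs) held 17 Sox9, 73 Krt8, 57 Krt18, 61 Sprr1a and 38 Tnfrsf12a UMIs and 6846 of Alb, at percentile 87.4. The member ranked 96 (Tom-, 49782 UMIs), in a cluster led by interferon genes, held 16 Sox9 UMIs and 589 of the chemokine Cxcl9, at percentile 24.8. The hepatocyte regulator Hnf4a was low in the first 2 of these, at 200 and 228 CPM against 630 in reference hepatocytes. Other biliary genes were not absent from all 3. The 25 low biliary genes came to 36 UMIs (450 CPM) in the member ranked 79, 1 UMI (22.8 CPM) in that ranked 80 and 21 UMIs (422 CPM) in that ranked 96, against 21.2 CPM in reference hepatocytes.

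Over all members, 31.2% of 9929 genes were at least 2-fold higher than in all other cells kept and 1.6% at least 2-fold lower. The median log2 ratio of all genes was 0.57, so ratios are to be read relative to it. Scaling by median of ratios, which removes 0.56, turned 3093 higher and 159 lower genes into 1837 higher and 915 lower. Of the 19 hepatocyte genes 0 were higher and 1 was lower, with a median log2 ratio of -0.62. Of the 7 zone 3 genes 4 were lower, with a median of -1.06, and of the 7 zone 1 genes none passed 2-fold, with a median of -0.56. The genes with the smallest ratios were the steroid dehydrogenases Hsd3b2 (2 UMIs, -2.68, interval -5.73 to -0.83) and Hsd3b3 (6 UMIs, -2.35, interval -3.80 to -1.23), the adrenergic receptor Adra1a (2 UMIs, -2.59, interval -5.64 to -0.74), and the cytochromes Cyp2c55 (6 UMIs, -1.99) and Cyp2c37 (13 UMIs, -1.80). Nr1i3, the nuclear receptor CAR of hepatocytes, had -1.87 (-2.48 to -1.32), at 35.8 CPM in members and 131 CPM in other cells.

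The reporter followed the sort. The 28 Tom+ members were at 618 CPM of tdTomato, with a UMI in 21, and the 72 Tom- members at 60 CPM, with a UMI in 20. In the 7 Tom+ cholangiocyte-like members tdTomato was at 0 at the lowest, 559 CPM at the median and 1470 CPM at the highest, and 6 had a UMI. The members ranked 20 and 77, with 1470 and 1457 CPM, were the deep cells with hepatocyte-level RNA in that library. The 22 Tom- cholangiocyte-like members were at 0, 0 and 418 CPM, and 8 had a UMI. All 5 Tom+ mesothelial-like members had a tdTomato UMI, at 187 to 580 CPM. tdTomato in reference hepatocytes of the Tom+ library was at 812 CPM and in those of the Tom- library at 73.2 CPM. Leukocyte-like cells summed to 845 CPM (Tom+, median depth 2425 UMIs) and 87.9 CPM (Tom-, median depth 2649 UMIs). Deep cells weigh most in such sums. The medians over leukocyte-like cells were 598 CPM (Tom+) and 0 CPM (Tom-), and 77.8% and 39.4% of them had a UMI. Each member group's sum lay below the sums of both comparison sets in its library, apart from the 7 Tom+ cholangiocyte-like members. These were at 931 CPM, with an interval of 765 to 1121 that included both Tom+ sums. Reporter RNA of the members is therefore not read as p16Ink4a transcription in them.

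**Figure D5:**
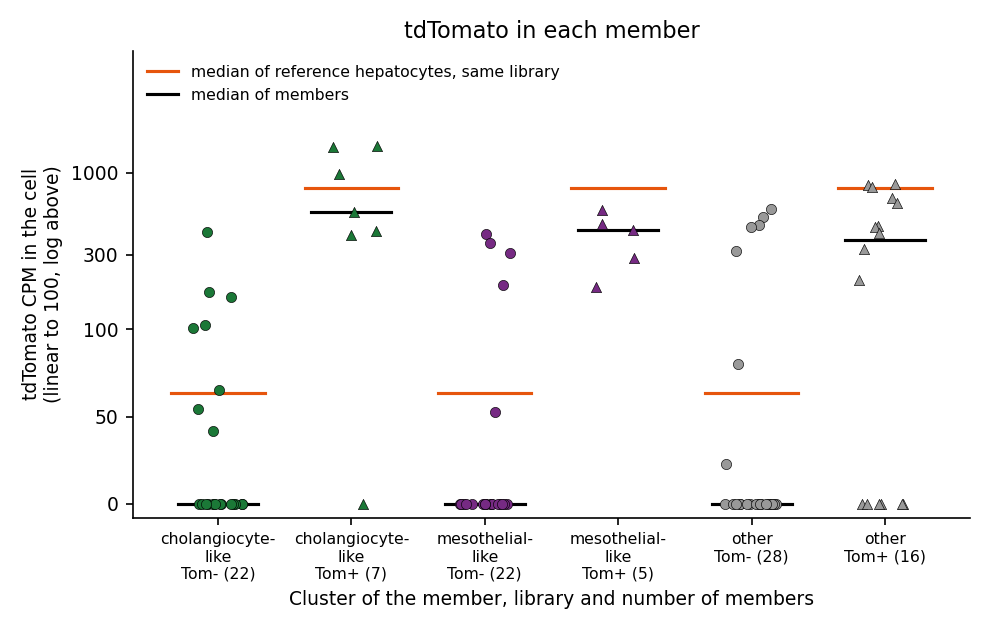
tdTomato CPM of each member (linear to 100, log above) by cluster group and library, with the median of the members in black and of reference hepatocytes of the same library in orange. Tom+ members have medians of 559, 431 and 370 CPM in the 3 groups, and the Tom- medians are 0.

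Tom+ over Tom- members had a log2 ratio of 0.82 (0.74 to 0.90) for the 37 biliary genes, at 8929 and 5059 CPM. Without the first member, which is Tom+, the log2 ratio was 0.13. Of 6923 genes compared, 8.29% were 2-fold higher and 4.77% 2-fold lower in Tom+ members. The largest ratios, of Dmbt1, Spink4, Ltf, Duox2 and Areg, each rested on UMIs of 1 Tom+ cell, and among the smallest ratios Cxcl9 had 599 UMIs in Tom- members, of which 589 were in the member ranked 96.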

How the data were processed

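Single-cell RNA of 1 Tom- and 1 Tom+ library was measured with probe pairs (10x Flex) plus custom tdTomato probes. The authors counted UMIs with Cell Ranger 7.2.0 on mm10, and the deposited matrices hold raw counts of 19073 features without normalization. Probes capture genes unequally, so levels of different genes are not ranked as molecules.

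Cells were kept as given above (the study's own minimum was 2000 genes, which 34 of the members reached), ranked by marker content, scaled to 10000, log-transformed and clustered jointly (2000 variable genes, values clipped at 10, 30 components, 20 neighbours, Leiden resolution 0.8; Python 3.11.15, scanpy 1.11.5, leidenalg 0.10.2), which gave 20 clusters. A cluster was named when at least 3 of its fixed markers reached 5 CPM and 1.5-fold over other clusters, more than for any other name, with 1 among its top 10 genes at 20 CPM. For the cholangiocyte-like name the fixed markers were the rule genes and the 37 biliary genes. For the mesothelial-like name they were the 13 mesothelial genes. No cluster could be named hepatocyte-like, as most cells are hepatocytes. Reference hepatocytes were instead cells of unnamed clusters with median genes of at least 0.75 times that of all cells and with Ptprc, Dcn and Pecam1 under 2.5 times the median cluster. A list was called raised at 3 UMIs and above the 99th percentile of these cells. Scrublet marked 1 Tom- and 0 Tom+ cells, so it did not work and doublets were not removed. Leaving out its highest scores is thus not a control for doublets.

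UMIs were summed per set and expressed as CPM (intervals from the exact Poisson distribution), shares with Clopper-Pearson intervals, and ratios of lists and genes without a pseudocount with exact conditional intervals, all at 95%. Genes were counted at 2-fold with a pseudocount of 0.5 UMIs among those with 10 CPM in either sum and 20 UMIs over both. With 1 library per group no p-value was computed. Named genes were the rule markers, the list genes, the 15 largest and 10 smallest ratios of members over other cells, the 8 largest per member group and the 5 largest and smallest of Tom+ over Tom-. The members and lists were chosen with earlier results of these data known. The division of the biliary list at 10 CPM, the depth bands, the zone balance and the deep cells described were chosen after seeing the data. Counting was tested on simulated data. Gene positions are from GENCODE vM21 (mm10) and promoters from RefSeq (GRCm38.p6).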

Additional observations from a re-analysis of the deposited data

How the results depend on the processing

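No paired analysis was possible because Tom- and Tom+ are 1 library each, which gives fewer than 2 pairs. Of 156 values recomputed under alternatives, 93 stayed within counting error or the limit for counts, 63 moved and 0 reversed. The cause of these moves was not tested, except that other rules choose other members by construction. The log2 ratios over all other cells kept were 1.81 (biliary), 8.71 (mesothelial) and -0.49 (hepatocyte).

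With 50 members these became 2.5, 9.91 and -1.04, with 4803 higher and 568 lower genes. Mesothelial-like members were 42%, and 44% had mesothelial genes raised. The log2 ratio of the biliary list in Tom+ over Tom- members (Tom log2 ratio below) was 1.03. With 200 members the log2 ratios over other cells were 1.15, 7.91 and -0.23, with 1429 higher and 21 lower genes. Cholangiocyte-like members were 17.5% and mesothelial-like members 18%. Biliary and mesothelial genes were raised in 24.5% and 18.5%, and the Tom log2 ratio was 0.64. A minimum of 2000 genes (34 shared members) gave 1.36, 8.30 and -0.28, with 1671 higher and 32 lower genes, 19% cholangiocyte-like members and 24% with biliary genes raised. Requiring 3 marker UMIs (37 shared members) gave 1.04, 6.83 and -0.075, with 619 higher and 30 lower genes. The Tom log2 ratio was 0.60. Thinning to 2000 UMIs (69 shared) gave 1.61, 8.36 and -0.43, with 73 lower genes and a Tom log2 ratio of 0.73.

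Without Krt19 in the rule the Tom log2 ratio was 0.69, with 18% mesothelial-like members. The biliary and mesothelial log2 ratios were 1.75 and 8.23. Without Krt7 they were 1.75 and 8.05. Without Epcam they were 1.75 and 8.93, with -0.55 for hepatocyte genes. Without Sox9 (67 shared) they were 1.58, 8.87 and -0.35, with 53 lower genes and a Tom log2 ratio of 1.04. Without the highest doublet scores the Tom log2 ratio was 0.65, which is not a control for doublets as the caller did not work. Alternatives chosen after seeing the data were leaving out the first member and the mean over cells of the UMI share. The former gave log2 ratios of 1.51 (biliary), -0.41 (hepatocyte) and 0.13 (Tom). The latter gave 1.15, 7.72 and -0.62 for biliary, mesothelial and hepatocyte genes.

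A minimum of 50 CPM gave 847 higher and 98 lower genes and no minimum 6295 and 261, since fewer or more genes enter. Median-of-ratios scaling gave 1837 and 915. Clustering at resolution 0.4 and 1.2 kept 29 and 28 of the 29 cholangiocyte-like members and all 27 mesothelial-like members, and clustering each library alone kept 28 and 22. Depth limits what single cells show, as 49 members rest on 1 marker UMI.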

Other observations

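Proliferation genes had few UMIs in the members, but their level was above that of other cells. Over all members, 5 cell cycle genes could be compared with all other cells kept, and 5 were higher. Their median log2 ratio was 2.15, against 0.57 for all genes, of which 31.2% were higher. The 9 measured cell cycle genes had 71 UMIs in the 29 cholangiocyte-like members (213 CPM, 166 to 268), against 36.2 CPM in reference hepatocytes. They had 6 UMIs in the 27 mesothelial-like members and 17 in the 44 members of other clusters, which are counts and not levels. Pcna, a replication clamp, was found in 11 cholangiocyte-like members (24 UMIs), Mki67, a marker of cycling cells, in 3 (10 UMIs), and Top2a, a topoisomerase of dividing cells, in 2 (8 UMIs). Of the cell cycle inhibitors, Cdkn2a had 1 UMI in all 100 members, or 1.38 CPM (0.0349 to 7.68), against 0.173 CPM in reference hepatocytes. Cdkn1b was at 129 CPM (93.2 to 173) in cholangiocyte-like members against 37.4 CPM in reference hepatocytes. Cdkn1a was at 92.8 CPM in cholangiocyte-like members, 43.2 CPM in mesothelial-like members and 232 CPM in members of other clusters, where 41 of the 64 UMIs came from the member ranked 79.

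The first member held genes that hardly occurred in the other members, among them Ltf, which was also a leading gene of a cluster led by the neutrophil genes S100a8 and S100a9. Dmbt1, a secreted mucosal protein, had 1058 UMIs in the members, 1057 of them in this cell, and Spink4 with 111, Ltf with 63, Duox2 with 47, Chil4 with 27 and Olfm4 with 21 UMIs were found in no other member. Genes with large ratios that were spread over more members were the splicing factor Esrp1 (19 UMIs in 8 members), Arhgef38 (20 UMIs in 9) and Tff2, a mucosal peptide (38 UMIs in 6).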
